A study of Mus musculus with 4 samples.

Results

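The 4 mouse Hox clusters were examined here as DNA being replicated, in stem cells that have or lack the chromatin remodeller Snf2h. They were taken by position: all windows of the replication profile whose start lay between 51500001 and 52900001 on chromosome 6 (HoxA), 95500001 and 97000001 on chromosome 11 (HoxB), 102300001 and 103700001 on chromosome 15 (HoxC), or 74000001 and 75400001 on chromosome 2 (HoxD), in GRCm38. That gave 232 windows of 100 kb out of 109033, with 57 at HoxA, 61 at HoxB, 57 at HoxC and 57 at HoxD. All 232 held a value in every library, and no value lay at a bound of the scale. Successive windows start 25 kb apart and so share most of their sequence. A subset of 61 windows that do not overlap, 15 to 16 per cluster, was therefore used for tests by window.

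The cells were 129S6/SvEvTac embryonic stem cells, either wild type (WT) or Snf2h knockout (KO), with 2 libraries of each genotype. Snf2h, the product of Smarca5, is the motor ATPase of the ISWI complexes, which slide and space nucleosomes. Both genotypes grew on gelatin in medium with serum and leukaemia inhibitory factor, and the labels give duplicate cultures, name no further treatment and do not say how many knockout clones were used. TrAEL-seq tags free 3′ ends of DNA, which at replication forks lie on the strand set by the direction of the fork. The table holds a signed strand imbalance between -50 and 50 percentage points per window, called polarity here and given in points. It has no transcript levels, so neither the loss of Snf2h nor the stem cell identity was checked, and the expression of the Hox genes was not analysed here.

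Hox genes encode homeodomain transcription factors that give body segments their identity along the head to tail axis. They lie in their clusters in the order in which they act, from paralogue group 1 for the hindbrain to paralogue group 13 for the tail, genitals and limb tips. In pluripotent cells they are mostly silent under Polycomb chromatin, and they open in sequence as cells differentiate. Along a chromosome, polarity climbs or falls where the usual fork direction turns: forks leave an initiation zone in both directions and meet in termination zones. Which strand was counted as positive is not given in the sources used here, so a climb is called a rise and is not assigned to either kind of zone.

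All 39 Hox genes of the 4 clusters were placed by RefSeq annotation of GRCm38. HoxA, on chromosome 6, holds 11 genes, has Hoxa13 at its right end and is read mainly from the minus strand. The other clusters have their paralogue group 13 gene on the left and are read from the plus strand. HoxB lies at chr11:96194316-96368254 with 10 genes, HoxC at chr15:102921131-103036856 with 9 genes, and HoxD at chr2:74668225-74765142 with 9 genes. The Hox genes span 173.9 kb at HoxB, 115.7 kb at HoxC and 96.9 kb at HoxD, hence a single window covers much of a cluster and neighbouring genes often share it.

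The clusters arose from a common ancestor, and their microRNAs mark the same place in different clusters by sequence. The mature forms of miR-196, beside paralogue groups 9 and 10, and of miR-10, beside paralogue group 4, are shown because they allow polarity to be compared at matched places. Both families repress target messengers, among them Hox messengers. Sequences are from RefSeq for GRCm38.p6, 5′ to 3′, with the seed (bases 2 to 8) in capitals.
mmu-miR-196b-5p (HoxA, chr6:52230129-52230150, minus strand): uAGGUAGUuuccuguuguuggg
mmu-miR-196a-5p (HoxB, chr11:96265187-96265208, plus strand, and HoxC, chr15:102973365-102973386, plus strand): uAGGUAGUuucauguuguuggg
mmu-miR-10a-5p (HoxB, chr11:96317186-96317208, plus strand): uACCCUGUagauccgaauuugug
mmu-miR-10b-5p (HoxD, chr2:74726074-74726096, plus strand): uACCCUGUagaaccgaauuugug
Counted from the 5′ end, miR-196a and miR-196b are identical at 21 of 22 bases and differ by A12C. The sequences of miR-10a and miR-10b are identical at 22 of 23 bases and differ by U12A. Both families keep their seed across clusters.

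In every library, polarity was higher at the right end than at the left end of each of the 4 groups of Hox genes. Polarity profiles were smoothed with a running mean of 5 windows, and a rise or fall was a stretch between turning points with a change of at least 1 SD in that library. By this rule 36 of the 39 Hox genes were centred inside a rise in all 4 libraries, against 28.3% of 20665 protein-coding genes. The 36 were all 11 genes of HoxA, all 9 of HoxD, 8 of HoxB and 8 of HoxC. The exceptions were Hoxb13 and Hoxb9, at and near the left end of HoxB, and Hoxc4, the rightmost gene of HoxC. By library, 37 and 36 Hox genes lay in rises in WT replicates 1 and 2 and 38 in each KO library, and 1, 1, 0 and 0 lay in falls. Over protein-coding genes, 40.7% to 41.6% lay in rises and 21.8% to 23.8% in falls, by library. Genes of a cluster share windows, so these counts describe 4 loci rather than 39 separate cases. With a wider running mean of 9 windows the count was 20 of 39, with HoxA and HoxD keeping all their genes and HoxB and HoxC none, against 31.4% of protein-coding genes.

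**Figure D1:**
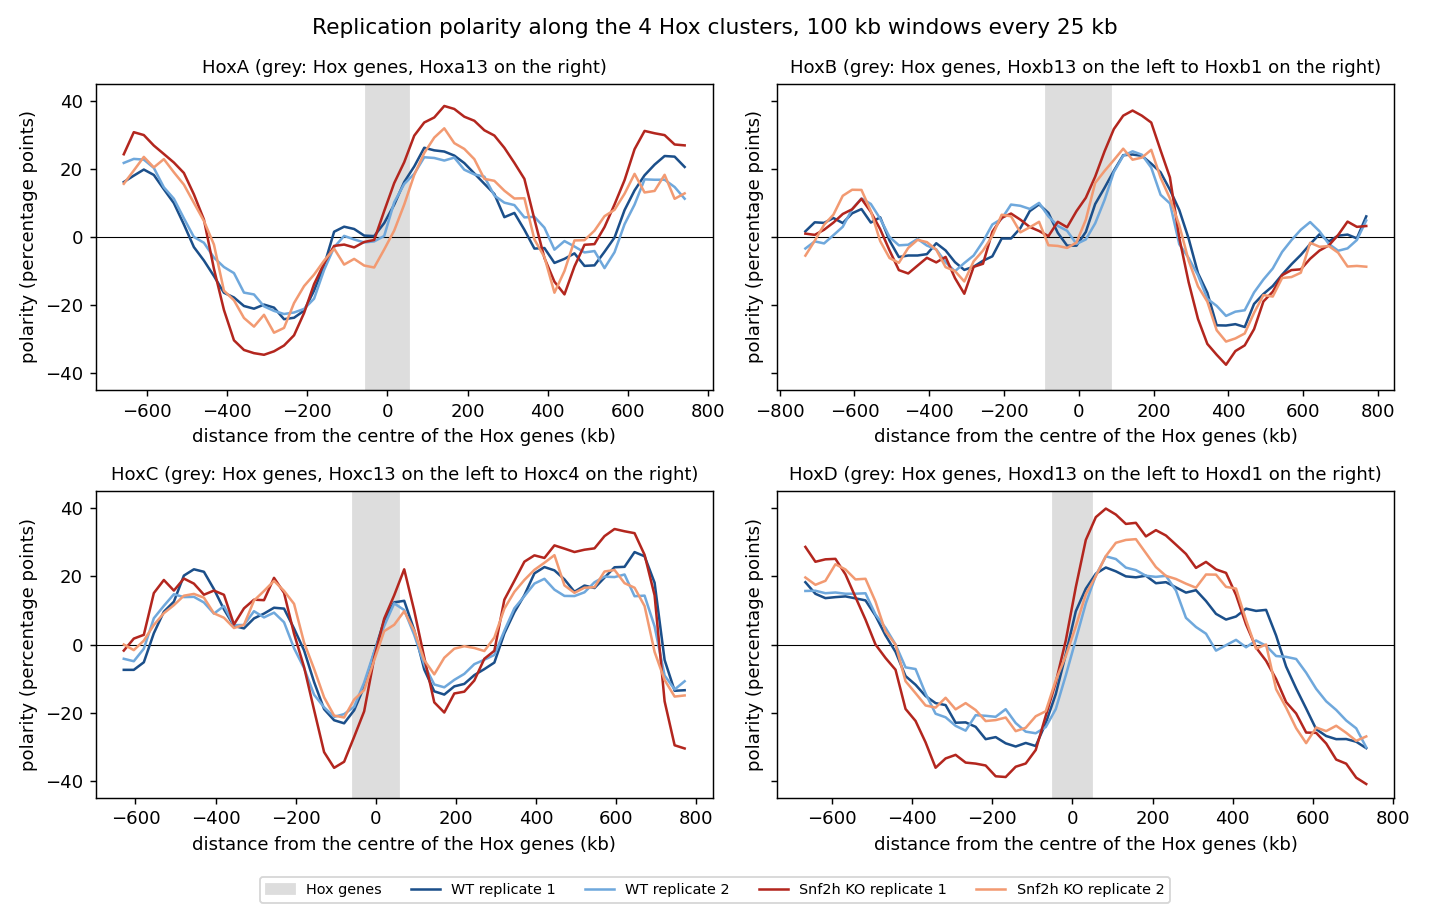
Polarity in percentage points against distance in kb from the centre of the Hox genes, in the 4 ranges, with a line per library (blue WT, red and orange Snf2h KO) and the span of the Hox genes in grey. Polarity is higher at the right edge of the grey span than at the left in all 4 clusters and libraries, after an initial drop at HoxB in the WT libraries, HoxC and HoxD cross 0 inside it, and KO replicate 1 reaches the widest extremes.

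Polarity was next read at the genes that end the clusters. Each gene was given the polarity of the window centred nearest to its own centre. Hoxa13, which patterns digits and the genital and hindgut ends of the body, read 16.1 and 15.5 points in the WT libraries and 21.9 and 9.51 points in the KO libraries. The WT values lay between the KO values. Hoxa13 was positive in all 4 libraries and lay on the upper part of the HoxA rise.

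At HoxB the end genes differed between genotypes in opposite directions. Hoxb13, which acts in the tail and prostate, read 7.06 and 6.05 points in WT against 0.237 and -2.44 points in KO. Both KO libraries were below both WT libraries, by 7.66 points on average against a pooled SD of 1.43 points. Hoxb1, which gives identity to the hindbrain segment of the facial nerve, read 19.4 and 19.1 points in WT against 31.7 and 22.6 points in KO. Both KO libraries were above both WT libraries, by 7.89 points on average against a pooled SD of 4.55 points. From Hoxb13 to Hoxb1 the net step was therefore 12.3 and 13.01 points in WT (12.7 ± 0.474, SD, n = 2) against 31.4 and 25.0 points in KO (28.2 ± 4.53, SD, n = 2). It is not a steady climb, as Hoxb13 lay outside the rise in all 4 libraries. In WT, polarity first fell to -2.55 and -2.05 points at Hoxb9. The steps did not overlap between genotypes, and their difference of 15.6 points compared with a pooled SD of 3.22 points. The exact two-sided permutation test over the 4 libraries gave p = 0.333, the smallest value that 2 against 2 libraries allow. Divided by the SD of each library over the autosomes, the steps were 0.844 and 1.01 in WT and 1.62 and 1.72 in KO, again without overlap.

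Between these ends the 8 other HoxB genes, from Hoxb9 to Hoxb2, also read higher in both KO libraries than in both WT libraries. Hoxb4, which acts in the hindbrain and in blood stem cells, shares its nearest window with Hoxb3, and read 9.66 and 3.98 points in WT against 17.7 and 15.8 points in KO. At Hoxb9, a gene of the thoracic skeleton, the values were -2.55 and -2.05 points in WT against 7.58 and -1.65 points in KO, so that the gap there came mainly from KO replicate 1. In all, both KO libraries exceeded both WT libraries at 9 of 10 HoxB genes and were below at 1, beside 22.2% above and 22.5% below over non-overlapping autosomal windows. Those 10 genes rest on 6 windows, most of which overlap.

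HoxC crossed from negative to positive polarity between its end genes in all 4 libraries. Hoxc13, a gene of hair and nails, read -19.3 and -18.3 points in WT against -27.1 and -16.2 points in KO. Hoxc4, which patterns the neck and upper trunk, read 12.4 and 12.1 points in WT against 14.5 and 5.79 points in KO. At both genes the WT libraries differed by at most 1.00 point and the KO libraries lay on either side of them. The step from Hoxc13 to Hoxc4 was 31.7 and 30.4 points in WT against 41.6 and 21.9 points in KO, a mean difference of 0.741 points (exact permutation p = 1). Without KO replicate 1 that difference was -9.06 points.

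HoxD had a larger step between its end genes than HoxB and HoxC in all 4 libraries. Hoxd13, which shapes the digits, read -14.5 and -19.0 points in WT against -11.1 and -10.5 points in KO. Both KO libraries were above both WT libraries, by 5.93 points against a pooled SD of 2.22 points, and Hoxd12 and Hoxd11 share that window. Hoxd1, which acts in sensory neurons, read 20.8 and 20.3 points in WT against 37.4 and 20.1 points in KO. The groups overlapped at Hoxd1, where KO replicate 1 stood far above the other libraries. From Hoxd13 to Hoxd1 polarity climbed by 35.3 and 39.3 points in WT against by 48.5 and 30.6 points in KO, a mean difference of 2.25 points (exact permutation p = 1), which was -6.72 points without KO replicate 1.

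**Figure D2:**
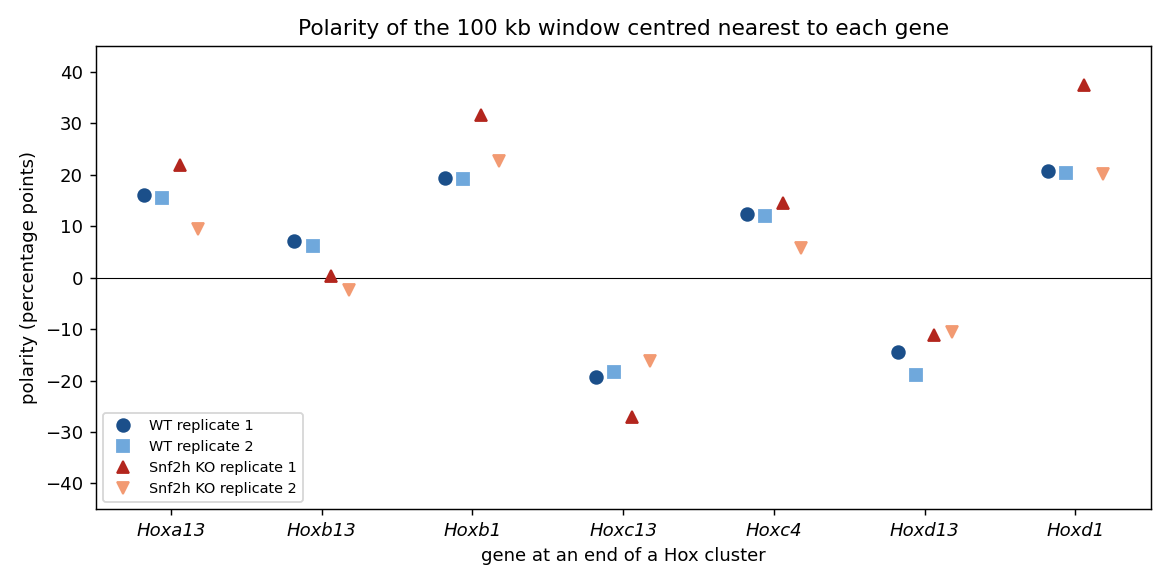
Polarity in percentage points of the 100 kb window nearest to each of the 7 end genes, with a point per library. Both KO points lie below both WT points at Hoxb13 and above them at Hoxb1 and Hoxd13, and the genotypes overlap at Hoxa13, Hoxc13, Hoxc4 and Hoxd1.

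Over all 39 Hox genes, 16 read positive in all 4 libraries and 8 negative in all 4. Both KO libraries were above both WT libraries at 12 genes (9 of HoxB and 3 of HoxD) and below at 5 (4 of HoxC and Hoxb13). None of the 11 HoxA genes had KO and WT values apart. Over non-overlapping autosomal windows, both KO libraries were above both WT libraries in 22.2% and below in 22.5%, which together make 44.7%. The share of Hox genes above was 12 of 39 and below 5 of 39, and shared windows make these counts coarse.

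The microRNA genes gave the polarity at matched places. Mir196a-1 of HoxB read -2.55 and -2.05 points in WT against 7.58 and -1.65 points in KO. Mir196a-2 of HoxC, whose mature miRNA is the same, read -2.38 and -2.16 points in WT against -4.01 and -4.63 points in KO. In WT the identical miRNA thus sat at nearly the same level in HoxB and HoxC, close to 0, and the KO libraries were higher at HoxB and lower at HoxC. Mir196b of HoxA read 9.48 and 10.2 points in WT against 15.8 and 1.88 points in KO, positive throughout and with overlapping groups.

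Mir10a, beside Hoxb4, read 9.66 and 3.98 points in WT against 17.7 and 15.8 points in KO. Mir10b, beside Hoxd4, read 9.77 and 1.46 points in WT against 16.8 and 5.29 points in KO. Both miR-10 genes read positive in all 4 libraries, apart between genotypes at Mir10a and overlapping at Mir10b. Of the 17 non-coding RNA genes listed for the clusters, all of which lay in the ranges, 9 were positive and 2 negative in all 4 libraries. Hotair, a long non-coding RNA gene of HoxC, read -12.4 and -11.1 points in WT against -19.6 and -13.4 points in KO. Hottip, a long non-coding RNA gene beside Hoxa13, read 20.7 and 18.5 points in WT against 29.7 and 18.2 points in KO.

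The rises themselves differed in shape among clusters. For each cluster the rise over the Hox genes was delimited on the 4-library mean profile, and its height was then read in each library. There were 2455 such rises on the autosomes, with a median height of 28.7 points, a median length of 225 kb and a median slope of 12.2 points per 100 kb. The 2437 falls had a median of -26.4 points, 325 kb and -8.53 points per 100 kb. In how many of all these rises and falls both KO libraries exceeded both WT libraries was not counted. The SD of polarity, summed over libraries, was larger in KO than in WT in 92.1% of 1616 autosomal stretches.

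HoxD lay under a high and steep rise, from 74575000 to 74850000 (275 kb), that left the Hox genes near its middle. Its heights were 49.8 and 46.1 points in WT (47.9 ± 2.60, SD, n = 2) against 72.04 and 51.8 points in KO (61.9 ± 14.3, SD, n = 2). That gap of 14.0 points compared with a pooled SD of 10.3 points (exact permutation p = 0.333). It was 3.84 points without KO replicate 1 and 24.1 points without KO replicate 2, and the groups overlapped once each library was standardised. On the mean profile this rise was larger than 96.4% and steeper than 95.4% of all rises. HoxA lay under a rise nearly as tall but longer, from 51925000 to 52350000 (425 kb), larger than 94.9% and steeper than only 51.8% of all rises. Its heights were 46.3 and 43.1 points in WT (44.7 ± 2.26, SD, n = 2) against 68.6 and 52.5 points in KO (60.5 ± 11.4, SD, n = 2). The KO libraries were both higher, by 15.8 points against a pooled SD of 8.21 points (exact permutation p = 0.333). The difference was 7.74 points without KO replicate 1 and 23.8 points without KO replicate 2.

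On the mean profile HoxC had the shortest and steepest of the 4 rises, from 102900000 to 103025000 (125 kb), which was about as long as the group of Hox genes. In KO replicate 2 the HoxD rise was the steeper. The HoxC rise was steeper than 98.4% of all rises, at 22.1 points per 100 kb, and larger than 46.0% of them. Its heights were 26.0 and 23.6 points in WT (24.8 ± 1.72, SD, n = 2) against 39.8 and 21.2 points in KO (30.5 ± 13.1, SD, n = 2). The groups overlapped, with a difference of 5.73 points against a pooled SD of 9.35 points (exact permutation p = 1), and the difference was -3.54 points without KO replicate 1. HoxB had the lowest rise on the mean profile and in every library but KO replicate 2, where HoxC was lower. It ran from 96250000 to 96425000 (175 kb) and was larger than 35.8% and steeper than 66.6% of all rises. Its heights were 21.7 and 20.8 points in WT (21.2 ± 0.578, SD, n = 2) against 29.4 and 25.0 points in KO (27.2 ± 3.11, SD, n = 2). Both KO libraries were higher, by 5.93 points against a pooled SD of 2.24 points (exact permutation p = 0.333). That difference was 3.73 points without KO replicate 1, and the groups overlapped once each library was standardised or when the ends were read on single windows.

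**Figure D3:**
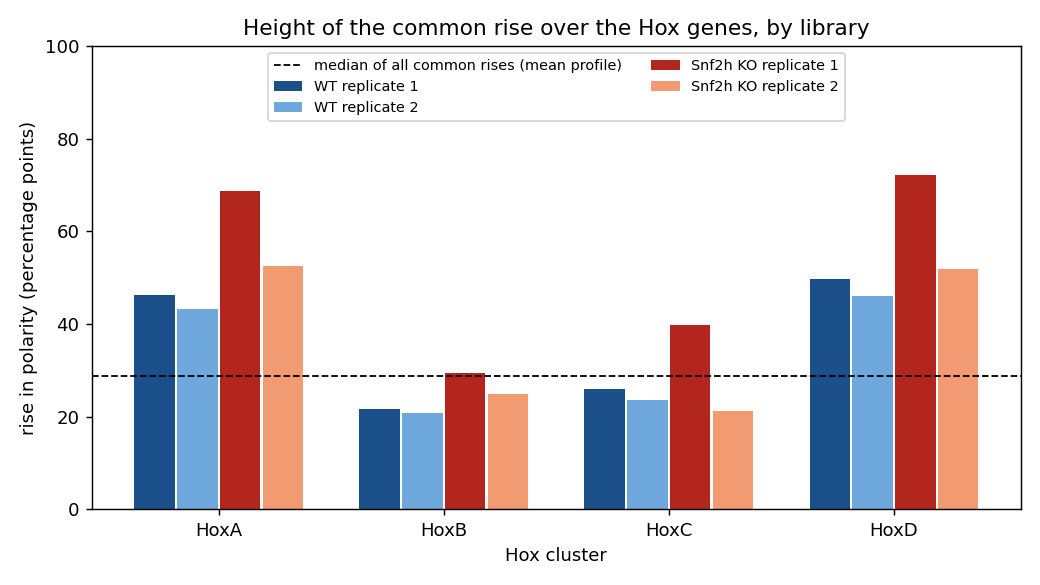
Height in percentage points of the rise over the Hox genes of each cluster, with a bar per library and a dashed line at 28.7 points, the median of 2455 autosomal rises. Both KO bars exceed both WT bars at HoxA, HoxB and HoxD, and at HoxC the KO replicate 2 bar is the lowest. How often both KO libraries exceed both WT libraries over all autosomal rises was not counted.

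Where the rises began and ended was also compared library by library. At HoxB the right end was at 96425000 in all 4 libraries, just beyond Hoxb1. Its left end lay at 96250000 and 96275000 in WT and at 96200000 and 96225000 in KO, closer to Hoxb13 in both KO libraries by at least 1 window step of 25 kb. At HoxD it lay at 74575000 and 74600000 in WT and at 74525000 and 74550000 in KO. The left end was thus farther left in both KO libraries than in both WT libraries at HoxB and HoxD. At HoxC it was at 102900000 in 3 libraries and at 102875000 in WT replicate 2. The right end at HoxC was at 103025000 in both WT libraries and at 103050000 in both KO libraries. At HoxA the rise that held the Hox genes began at 51950000 in both WT libraries, at 51900000 in KO replicate 1 and at 52150000 in KO replicate 2. The right ends at HoxA and HoxD overlapped between genotypes. Ends are resolved only to the spacing of 25 kb, and these shifts were not tested.

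The rise at HoxA had a shoulder before the Hox genes. At Halr1, a long non-coding RNA gene left of the cluster, polarity read 3.02 and 0.314 points in WT against -2.23 and -8.11 points in KO, so both KO libraries were lower. In KO replicate 2 the shoulder broke the rise into parts from 51900000 to 52100000 and from 52150000 to 52350000, and all 11 HoxA genes lay in the second. The other 3 libraries had a single rise there. The rise holding the HoxA genes, as called in each library, was 46.5 and 44.0 points high in WT. It was 69.6 and 34.9 points high in KO, so the groups overlapped by that measure.

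On the smoothed profiles, the place where polarity crossed 0 was stable at HoxC and HoxD. At HoxC it lay at 102986422 and 102987413 in WT and at 102989578 and 102998568 in KO, within 12.1 kb and nearest to Hoxc9 or Hoxc8. At HoxD it lay at 74708204 and 74721737 in WT and at 74693242 and 74708467 in KO, within 28.5 kb and nearest to Hoxd8, Hoxd4, Hoxd10 and Hoxd8. Both ranges are near the spacing of the windows. At HoxA the crossing was spread over 106 kb, from 52103139 in WT replicate 1 to 52209054 in KO replicate 2, across the flat shoulder. At HoxB only KO replicate 2 gave a crossing inside the rise on the smoothed profile, at 96256680. Single windows of the WT libraries did change sign there, from -2.55 and -2.05 points at Hoxb9 to 19.4 and 19.1 points at Hoxb1.

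Of the 8 extreme windows of the ranges, the highest at HoxB and the lowest at HoxC overlapped Hox genes. The highest window of the HoxA range, at 52300001, contained Evx1, a homeobox gene next to the cluster, with 25.1 and 22.4 points in WT against 38.4 and 31.9 points in KO. The lowest, at 51900001, lay in Skap2, which encodes a signalling adaptor, with -24.1 and -22.6 points in WT against -31.9 and -26.7 points in KO. In both windows the KO libraries were farther from 0 than the WT libraries. HoxB had its highest window at 96350001, over Hoxb1 and Hoxb2, with 24.0 and 23.8 points in WT against 35.6 and 25.9 points in KO. Its lowest, at 96625001, lay in Skap1, the paralogue of Skap2, with -26.0 and -23.2 points in WT against -37.5 and -30.7 points in KO. The KO libraries were again farther from 0 at both. All extreme windows were chosen by the mean over all libraries, KO included, which favours windows where KO values lie far from 0. Over non-overlapping autosomal windows, the mean KO value was farther from 0 than the mean WT value in 68.7%.

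At HoxC the lowest window, at 102825001, reached Hoxc13 and read -22.2 and -21.2 points in WT against -36.2 and -20.9 points in KO. The highest, at 103525001, held Pde1b and Ppp1r1a, genes of a phosphodiesterase and a phosphatase inhibitor, with 22.7 and 19.8 points in WT against 33.9 and 21.9 points in KO. The genotypes overlapped at both HoxC extremes. At HoxD the highest window, at 74775001, overlapped Mtx2, a gene of mitochondrial protein import, and read 21.5 and 25.1 points in WT against 38.1 and 29.9 points in KO, without overlap. The lowest, at 75400001, read -30.4 and -30.2 points in WT against -40.9 and -27.0 points in KO, with overlap.

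The falls beside the clusters ranged widely in size. Right of HoxC the fall was larger than only 9.52% of all falls, with drops of 19.1 and 15.5 points in WT against 25.1 and 6.86 points in KO. The groups overlapped there, and the KO drop was smaller on average, with a difference of -1.26 points that was 7.88 points without KO replicate 2 and 0.537 points without WT replicate 1. Left of HoxC the first rise of the range was 23.4 and 15.6 points high in WT against 16.2 and 13.2 points in KO, also overlapping and lower on average in KO. The falls right of HoxB and HoxD were among the steepest or largest of all. The fall from 96425000 to 96700000 through Skap1, right of HoxB, was steeper than 98.8% of all falls, with drops of 47.3 and 43.1 points in WT against 67.6 and 51.7 points in KO. The KO libraries both dropped farther, by 14.4 points on average against a pooled SD of 8.22 points (exact permutation p = 0.333), or 6.48 points without KO replicate 1 and 22.4 points without KO replicate 2. The fall from 74850000 to 75500000, right of HoxD, was larger than 99.7% of all falls, with drops of 50.8 and 54.3 points in WT against 77.1 and 58.5 points in KO. There the difference was 15.2 points against a pooled SD of 9.46 points (exact permutation p = 0.333), or 5.92 points without KO replicate 1 and 24.5 points without KO replicate 2. The groups overlapped there once each library was standardised. The rise at HoxB was thus followed by one of the steepest falls of the autosomes.

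Of 28 genes listed as neighbours of the same paralogous regions, 22 lay in the ranges, and 11 of these were centred in a rise in all 4 libraries, against 28.3% of protein-coding genes. Both KO libraries were above both WT libraries at 10 of the 22, against 22.2% of autosomal windows, and below at 6, against 22.5%. Several of these genes share windows. Evx1 and Evx2, the homeobox genes that flank HoxA and HoxD, lay on opposite sides of 0. Evx1 read 25.4 and 23.2 points in WT against 35.1 and 29.2 points in KO. Evx2 read -23.1 and -24.2 points in WT against -20.9 and -19.6 points in KO. Each lies just beyond the paralogue group 13 gene of its cluster, which is the right end at HoxA and the left end at HoxD, and both KO libraries were above both WT libraries at each. Skap1 and Skap2 were negative in all 4 libraries and lower in both KO libraries, with -10.6, -11.3, -24.1 and -14.5 points at Skap1 and -20.7, -21.7, -33.6 and -28.1 points at Skap2 (WT replicates 1 and 2, then KO replicates 1 and 2). Calcoco1, a coactivator gene left of HoxC, read 10.8 and 9.36 points in WT against 19.6 and 18.7 points in KO, apart by 9.04 points against a pooled SD of 0.845 points. Calcoco2, left of HoxB, read -0.456 and 9.51 points in WT against 6.87 and 6.05 points in KO. Its groups overlapped, with a pooled SD of 5.00 points.

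No Hox window passed the test of genotype across the genome. A limma model fitted to 23672 non-overlapping autosomal windows called 13 at a Benjamini-Hochberg adjusted p of 0.05, which is 0.0549% of those tested, and none of the 61 Hox windows. The lowest adjusted p among the Hox windows was 0.248. At an unadjusted p of 0.05, 8 of the 61 Hox windows passed, 6 higher and 2 lower in KO, against 12.2% of all windows. Using all windows spaced 25 kb, 0 of 232 Hox windows passed against 0.076% of all. With the replicate number as a block 1 Hox window passed, the HoxD window that starts at 75000001 (limma adjusted p = 0.0475), against 2.66% of all windows.

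The counts were also taken with a library left out. With 1 KO library left, the spread comes from the WT libraries alone and the lone KO library is assumed to vary like them. Without KO replicate 1, 2 Hox windows passed against 5.79% of all windows. Without KO replicate 2, 21 of 61 passed (13 higher and 8 lower in KO) against 20.2% of all windows. Leaving out either WT library gave 0 at Hox, with 8 and 7 windows called in all without WT replicates 1 and 2. The SD of polarity over the autosomes was 14.6 and 12.8 points in WT against 19.5 and 14.5 points in KO, so that KO replicate 1 had the widest profile.

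The Hox window with the smallest p in each cluster gives the largest differences against error. At HoxD it started at 75000001, right of the cluster, and read 12.8 and 3.17 points in WT against 24.2 and 20.5 points in KO. The gap was 14.4 points, with an SE of 4.77 and a limma adjusted p of 0.248. This was the window that passed with the replicate block. At HoxA it was the Evx1 window described above, with a gap of 11.4 points, an SE of 4.62 and a limma adjusted p of 0.332. At HoxB it started at 96300001, over Hoxb5 to Hoxb1 and the end of Hoxb6, and read 14.4 and 10.8 points in WT against 25.1 and 19.3 points in KO. The gap was 9.61 points, with an SE of 4.61 and a limma adjusted p of 0.409. At HoxC it started at 103700001, at the right edge of the range, and read -13.4 and -10.8 points in WT against -30.5 and -14.9 points in KO. The gap was -10.6 points, with an SE of 5.12 and a limma adjusted p of 0.412. The genotypes did not overlap in any of these, which choosing by smallest p favours, and 44.7% of autosomal windows did not overlap either. Only the HoxB window holds Hox genes.

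Among the 61 windows, KO and WT libraries did not overlap in 33 (19 with KO above and 14 below), against 44.7% over the autosomes. The mean KO value was farther from 0 than the mean WT value in 45 of 61, against 68.7% over the autosomes. The median absolute difference was 5.46 points in the Hox windows and 4.44 points over all windows. Once each library was standardised, it was 0.236 in the Hox windows and 0.237 over all windows, in units of SD.

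**Figure D4:**
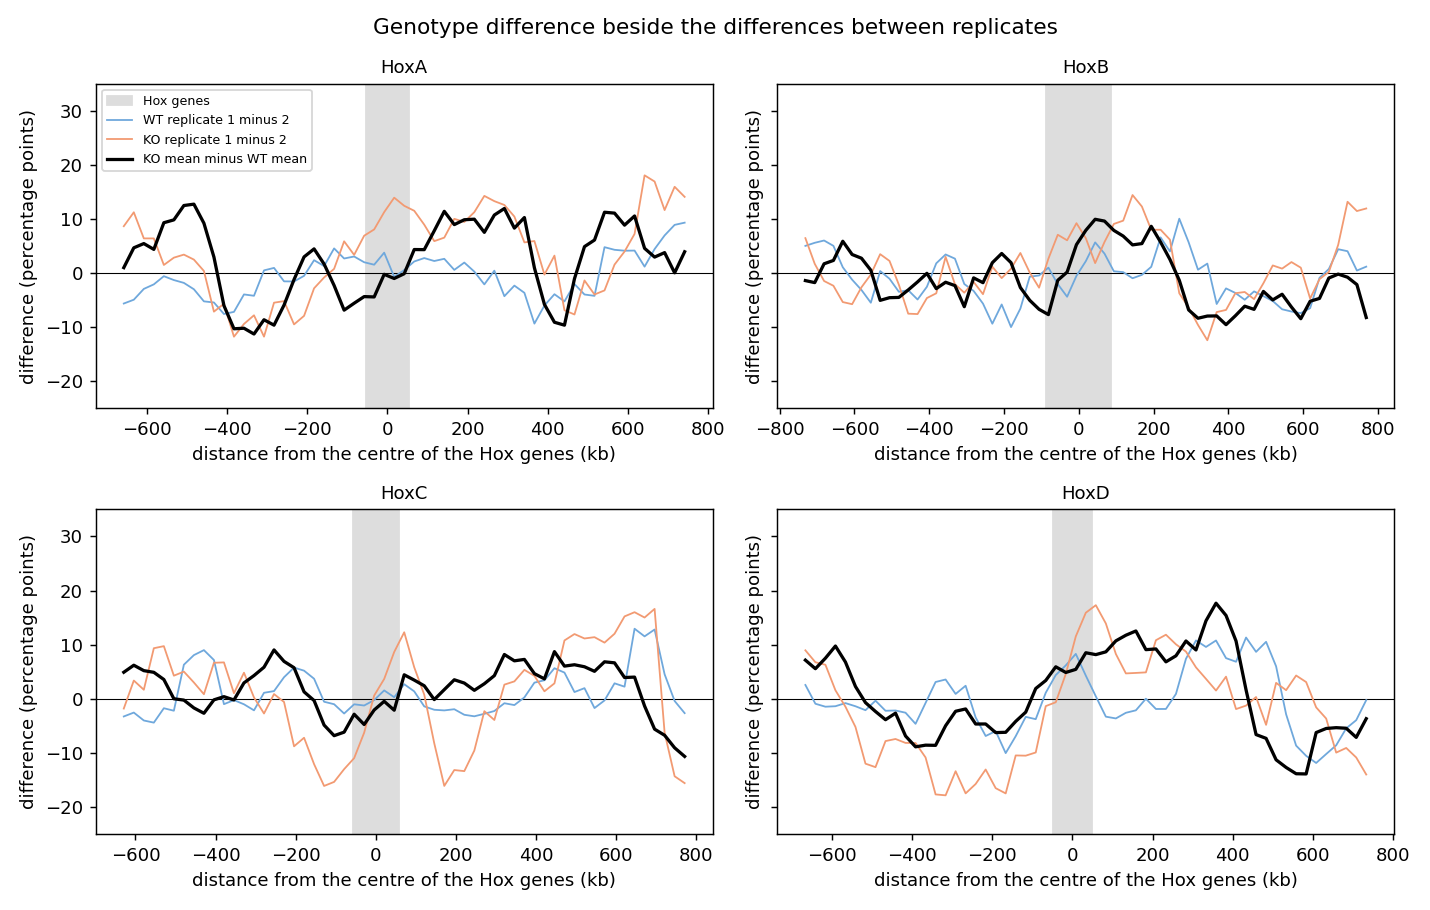
Difference in polarity, in percentage points, against distance in kb from the centre of the Hox genes, for KO mean minus WT mean (black) and for replicate 1 minus replicate 2 of WT (blue) and of KO (orange), with the Hox genes in grey. The black line is positive over most of the HoxB genes and negative at their left end, and the difference between KO replicates is as large as the genotype difference over much of HoxC.

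Amplitude, measured as the SD of polarity over the windows of a range, was highest at HoxD. It was 18.8 and 16.8 points in WT against 27.6 and 20.3 points in KO at HoxD, above 94.1% to 98.1% of 1616 autosomal stretches of 57 windows, by library. At HoxA it was 15.2 and 13.9 points in WT against 22.5 and 16.1 points in KO. At HoxB it was 12.0 and 10.8 points in WT against 17.2 and 13.5 points in KO. At these 3 clusters both KO libraries exceeded both WT libraries, by 6.15, 4.81 and 3.97 points at HoxD, HoxA and HoxB, with pooled SDs of 3.82, 3.24 and 1.95 points (exact permutation p = 0.333 each). Without KO replicate 1 these differences were 2.47, 1.63 and 2.11 points, and without KO replicate 2 they were 9.82, 7.99 and 5.83 points. At HoxC it was 14.1 and 12.0 points in WT against 19.8 and 12.2 points in KO, with overlapping groups, a difference of 2.96 points (exact permutation p = 0.667) and one of -0.875 points without KO replicate 1. The ratio of KO to WT amplitude was 1.33 at HoxA, 1.35 at HoxB, 1.23 at HoxC and 1.35 at HoxD, beside a median of 1.22 over the stretches, 92.1% of which had a ratio above 1.

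**Figure D5:**
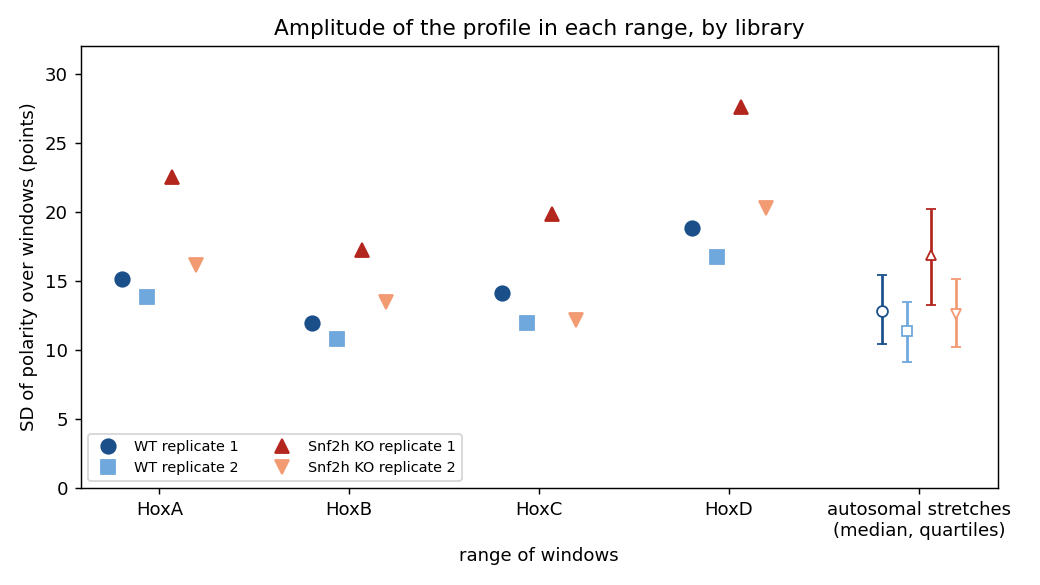
SD of polarity over windows, in points, for each Hox range and library (filled symbols), beside the median and quartiles of 1616 autosomal stretches of 57 windows (open symbols). HoxD is the widest range in every library, and the KO replicate 1 symbol is the highest of the 4 in each range.

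Mean levels over the Hox genes were less regular than amplitude. The mean over windows that overlap Hox genes was 8.12 and 7.66 points in WT against 12.9 and 7.82 points in KO at HoxB (exact permutation p = 0.667), and without KO replicate 1 the difference of 2.45 points became -0.0621 points. With only windows centred in the Hox genes it was 3.42 points and the HoxB groups did not overlap. At HoxD it was -0.100 and -2.32 points in WT against 7.87 and 1.44 points in KO, with both KO libraries higher by 5.87 points against a pooled SD of 3.40 points (exact permutation p = 0.333). The HoxD difference was 2.66 points without KO replicate 1 and 9.08 points without KO replicate 2, and the groups overlapped when only windows centred in the Hox genes were taken. At HoxC it was -4.78 and -4.76 points in WT against -7.48 and -5.88 points in KO, lower in both KO libraries, with a difference of -1.91 points against a pooled SD of 0.801 points (exact permutation p = 0.333). With non-overlapping windows the HoxC difference was -0.142 points and the groups overlapped, and without KO replicate 1 it was -1.11 points. At HoxA it was 9.94 and 8.04 points in WT against 12.9 and 3.35 points in KO, with overlapping groups. The HoxA difference of -0.864 points (exact permutation p = 1) was 3.92 points without KO replicate 2 and 0.0879 points without WT replicate 1.

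The form of each profile was kept in every library. Within a cluster, the correlation of polarity between any pair of libraries over its windows lay between 0.902 and 0.975, as a description over overlapping windows. The mean absolute distance between libraries of different genotype was 7.58 points at HoxA, 5.26 at HoxB, 5.69 at HoxC and 8.34 at HoxD. Between libraries of the same genotype it was 5.48, 4.27, 5.41 and 6.46 points. Over the autosomes the values were 6.51 and 5.48 points. The excess between genotypes was 2.10 points at HoxA, 0.989 at HoxB, 0.274 at HoxC and 1.87 at HoxD, with exact permutation p = 0.333 (also the smallest possible), except 0.667 at HoxC. It turned negative at all 4 clusters when WT replicate 2 was left out, with values between -1.97 and -0.155 points, and at HoxC also without WT replicate 1, at -1.999 points.

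Across the ranges there were 8 and 10 rises in WT and 7 and 9 in KO, and 8 and 10 falls in WT and 8 and 8 in KO (exact permutation p = 0.667 and 1). In all, 40 exact tests of genotype were made at the Hox clusters, and the lowest p of 0.333 was reached in 21 of them. After Benjamini-Hochberg adjustment over the 40 exact tests, the lowest value was 0.635. With 2 libraries per genotype from duplicate cultures, p-values measure only the spread between these libraries.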

How the data were processed

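Trim Galore 0.6.5, Bowtie2 2.4.1 and GRCm38 were used per the submitters' processing notes, and per the file headers the reads of each library were deduplicated after alignment. The authors deposited a table with a signed score per library for each 100 kb window, every 25 kb. The program, the positive strand and any read minimum are not given in the sources used here. The deposited scores come without read counts, so depth is unknown and no counting interval was computed; 7641 to 8249 windows per library lack a value. For WT replicate 2 the label and the column name give different indices, and the column was matched by genotype and replicate.

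Values were used as deposited. Genotypes were compared with limma 3.58.1 in R 4.3.3 (lmFit, eBayes) on 23672 complete, non-overlapping windows of the 19 autosomes, with Benjamini-Hochberg adjustment over all of them. Single values were compared by exact two-sided permutation over the 6 orders of the 4 libraries. The limma step was tested on simulated data. Genes were placed by RefSeq. All 39 Hox genes were placed and values by library given for the 7 end genes, for the extreme windows and the window of smallest p of each cluster, and for genes from lists of neighbours and non-coding RNAs. The members and lists were chosen with earlier results of these data known. Alternatives were other window sets, standardising each library, a replicate block, the trend and robust options of limma, other smoothing and thresholds, and leaving out each library. The alternatives for Hox genes in rises and for steps between end genes were added after the data were seen. Expression was not analysed here.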

Additional observations from a re-analysis of the deposited data

How the results depend on the processing

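Of 107 values recomputed under settings that kept all libraries, 89 kept their direction or, for counts, stayed within 1.5 times. The exact tests cannot pass a threshold here, so this says nothing of significance, and some groups went from apart to overlapping. After each library was divided by its SD, the difference between KO and WT turned to -0.0203 for the SD of polarity at HoxC, -0.0115 for its flanks, -0.0529 for the rise over its Hox genes, -0.207 and -0.00745 for its last rise and fall, -0.0751 for the second HoxA rise, and -0.442 and -0.438 for the steps between the end genes of HoxC and HoxD. The difference in the number of rises was 0.5 with a running mean of 9 windows and 0 with a minimum change of 0.5 SD, that in falls was 0 with the wider mean, and 20 Hox genes then lay in rises. The limma model called 72 windows over all windows spaced 25 kb, 88 after standardising, 302 with limma's robust trend, 630 with the replicate block (1 at Hox) and 856 with both block and standardising. The cause of these shifts was not tested.

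The labels number the replicates alike in both genotypes, but with 2 pairs the numbers are not shown to pair the cultures: deviations of same-numbered libraries correlated at 0.241 as deposited and 0.0158 after standardising.

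Leaving out each library in turn gave these lowest and highest differences: mean over the Hox genes, -5.64 to 3.92 at HoxA and -0.0621 to 4.97 at HoxB; SD of polarity at HoxC, -0.875 to 6.79; flanks, -0.534 to 0.852 at HoxC and -1.36 to 8.66 at HoxD; profile distance, -0.155 to 6.02 at HoxA, -0.159 to 2.57 at HoxB, -1.999 to 3.98 at HoxC and -0.813 to 6.30 at HoxD; steps between end genes, -9.06 to 10.5 at HoxC and -6.72 to 11.2 at HoxD. Rise and fall heights ranged from -3.54 to 15.0 for the HoxC Hox genes, -4.51 to 14.1 for the second HoxA rise, -10.4 to 7.88 for the second HoxC fall and -5.19 to 13.1 for the last HoxC rise. The numbers of rises and falls ranged from -2 to 0. Calls ranged from 7 to 4790 windows in all and from 0 to 21 at Hox. The step at HoxB kept its direction, from 12.3 to 18.8. Without read counts, what depth limits could not be measured.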
